A study of Mus musculus with 27 samples.

Results

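The comparison was between vehicle-treated mouse hearts 11 days and 3 days after transverse aortic constriction (TAC), with 3 arrays at each day. These 6 arrays, of 27 in the series, were chosen by their labelled group, and every gene with its own probe set, 19937 in all, entered the test. All animals were male C57Bl/6J littermates, 10 to 12 weeks old. TAC hearts came from mice whose aortic arch had been tied between the carotid arteries, which per the labels gave a pressure gradient of about 50 mmHg. Sham-operated hearts at the same 2 days, 3 arrays each, gave the change over the same days without constriction. Mice of all 4 groups received the vehicle of the drug arm, DMSO, by injection from 1.5 days after surgery. The remaining arrays, TAC hearts given the bromodomain inhibitor JQ1 and all groups at day 28, entered the fit to give a shared estimate of the spread. RNA came from a 10 to 20 mg piece of heart, so each value averages over all cells of that piece, and the chamber is not named. Whether each array stands for its own animal is not stated in the labels, so p-values here weigh a change against the spread of these samples, which may be technical. Nor do the labels give a processing batch, and one that followed the day could not be told apart from it.

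Constriction of the aorta raises the pressure against which the left ventricle pumps. Cardiomyocytes answer with growth, a return of fetal genes, and lower expression of genes for fuel oxidation and repolarizing currents. Injury and stretch also draw in white blood cells and activate fibroblasts, which lay down collagen, elastic fibres and basement membrane between the muscle cells and around the vessels. The endoplasmic reticulum folds the secreted proteins of that matrix with a set of chaperones that rise together in the unfolded protein response.

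Values are log2 signals, and changes are day 11 minus day 3 on the log2 scale ± standard error of the moderated fit (limma), with n = 3 arrays per group. A gene was called when its p-value, adjusted by the Benjamini-Hochberg method over all 19937 genes, was under 0.05. Between day 3 and day 11, 289 genes (1.45%) were called in TAC hearts, 164 of them higher (0.823%) and 125 lower (0.627%). Changes of at least 1.5-fold made up 35 of the higher (0.176%) and 29 of the lower calls (0.145%). In sham hearts limma called 0 genes (0%), with 1178 (5.91%) at an unadjusted p under 0.05 against 1967 (9.87%) in TAC hearts. The change differed between TAC and sham hearts, by the test of that difference, for 70 genes (0.351%; 1866 or 9.36% at an unadjusted p under 0.05). Of these 70, 31 (0.155%) were higher in TAC, 39 (0.196%) were lower, and 54 were among the 289. At other settings the sham test called between 0 and 6 genes, apart from 1036 with array weights. Of the 289 genes 123 (42.6%) had a change of the same sign in sham hearts, against 46.0% of all genes tested.

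**Figure D1:**
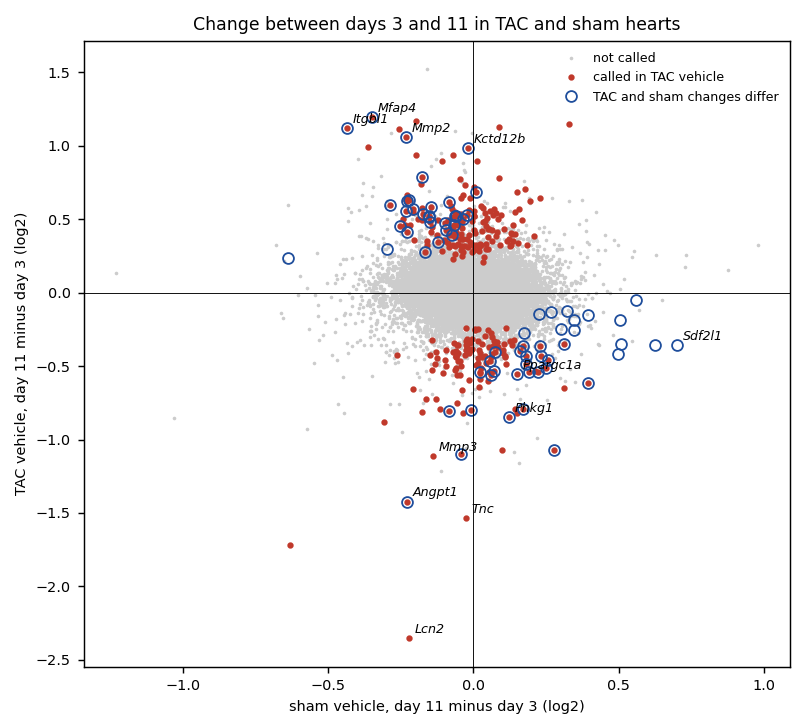
Each point is a gene: the change between days 3 and 11 in sham hearts (x axis) against that in TAC hearts (y axis), both log2. Red points are the 289 genes called in TAC hearts, and blue rings the 70 genes whose change differed between TAC and sham. On the TAC axis the red points reach from -2.35 (Lcn2) to 1.19 (Mfap4).

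These counts rested on few arrays. Below, d3r3 stands for TAC day 3 replicate 3, and the other TAC arrays are written alike. Without d3r3 the TAC count was 40 and the count for the difference 6. Without each other TAC array the TAC count lay between 94 (without d11r2) and 322 (without d3r2), with 133 without d11r1, 134 without d11r3 and 254 without d3r1. A fit to the 6 arrays alone called 26 genes. Of 97 called genes open to naming, 24 were called in each of the 6 fits that left out 1 TAC array, and 15 lost the call only without d3r3. The 97 include genes added after their values were seen. The difference from sham was called in each of 12 fits that left out 1 TAC or sham array for Manf, Ppargc1a, Pcdh17 and Mmp2. Replicate 2 of TAC day 3 stood apart from the other 2 arrays of its group in proliferation genes. Their mean level about the 27-array mean was 0.12, 0.82 and 0.24 for replicates 1 to 3 in TAC day 3, and 0.35, 0.29 and 0.34 in TAC day 11.

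Lcn2, Tnc and Mmp3 fell between day 3 and day 11. Lcn2, which encodes the iron-siderophore binding protein lipocalin 2, had log2 levels of 9.79, 10.39 and 11.03 at day 3 and 8.18, 7.93 and 8.04 at day 11 in TAC hearts. All 3 day 11 values lay below all 3 day 3 values, and within the sham range of 7.82 to 8.44. The change was -2.35 ± 0.47, a 5.11-fold lower level, the largest of the 289 (adjusted p = 0.0105). Tnc, which encodes the matricellular protein tenascin C of healing tissue, had levels of 8.32, 10.69 and 9.76 at day 3 and 8.28, 7.38 and 8.50 at day 11. Its groups overlapped, since day 3 replicate 1 lay within the day 11 range, and all 6 values lay above the sham range of 5.86 to 6.31. It fell by 1.54 ± 0.37 (adjusted p = 0.0317). Mmp3, a stromelysin that cleaves matrix proteoglycans, read 6.75, 7.73 and 7.83 at day 3 and 6.29, 6.39 and 6.28 at day 11. It fell by 1.11 ± 0.20 (adjusted p = 0.00518) and ended near the sham day 11 values of 6.27, 6.38 and 6.10.

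Of 18 complement and acute phase genes 1, Lrg1, fell (5.56%, against 1.45% of all genes called). Of the 18, 7 had a change above 0, with a median of -0.06 in TAC and -0.22 in sham hearts. Of 36 chemokines, cytokines and NF-kappaB targets measured, 4 fell and 1 rose, a share of 13.9% called against 1.45% of all genes. The 4 include Lcn2, described above. Of the 36, 16 had a change above 0, with a median of -0.06 in both TAC and sham hearts. Il33, an alarmin cytokine released from injured stromal cells, read 7.35, 7.78 and 7.79 at day 3 and 6.85, 6.97 and 6.73 at day 11, with no overlap, and fell by 0.79 ± 0.17 (adjusted p = 0.0169). Il6, the cytokine that drives the acute phase response, read 4.61, 5.37 and 5.15 at day 3 and 4.17, 3.96 and 4.62 at day 11, with overlapping groups. It fell by 0.79 ± 0.20, just under the threshold at adjusted p = 0.0495. Cxcl9, an interferon-gamma-induced chemokine for T cells, read 7.81, 7.51 and 7.27 at day 3 and 8.44, 9.03 and 8.09 at day 11. It rose by 0.99 ± 0.23 (adjusted p = 0.027), while the sham change was -0.36 ± 0.23. The macrophage chemokine Ccl2 had a change of -0.99 ± 0.43 (adjusted p = 0.411), and day 3 replicate 1 at 8.07 lay among the day 11 values. Lrg1, a glycoprotein of the acute phase, fell by 1.07 ± 0.24 (adjusted p = 0.0201), from 9.10, 9.08 and 10.03 to 8.51, 8.13 and 8.35. The levels of Lrg1 at day 11 were below the sham day 11 values of 9.29, 9.21 and 9.16.

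Mean macrophage marker levels overlapped between the TAC days, and the mean level of neutrophil markers, Lcn2 among them, was lower at day 11. Macrophage and monocyte markers, 26 of 27 measured, had mean levels of 0.18, 0.62 and 0.53 in TAC day 3 replicates 1 to 3 and 0.31, 0.17 and 0.22 at day 11. In sham hearts they were 0.06, 0.10 and -0.12 and -0.22, -0.20 and -0.19. Of the 26, 1 was called lower in TAC (3.85%, against 1.45% of all genes), and 5 without d3r1. The median change was -0.18 in TAC and -0.22 in sham hearts, with 7 of the 26 above 0 in TAC. Ms4a7 had the largest rise, 0.59 ± 0.23 (adjusted p = 0.306). The called gene was Arg1, an arginase of wound macrophages, with a change of -0.59 ± 0.14 (adjusted p = 0.0367). It read 5.99, 6.68 and 6.77 at day 3 and 5.93, 6.04 and 5.70 at day 11, with overlapping groups. Chil3, another gene of that state, had a change of -1.09 ± 0.33 (adjusted p = 0.126) and read 4.55, 6.08 and 6.84 at day 3 and 4.82, 4.77 and 4.62 at day 11, and day 3 replicate 1 was again with the later hearts. Neutrophil markers, 13 of 14 measured, had mean levels of 0.13, 0.25 and 0.52 at day 3 and -0.03, 0.04 and -0.24 at day 11. Of the 13, 1 was called (7.69%), Lcn2. These means include Lcn2. The median change was -0.30 in TAC and -0.04 in sham hearts, with 2 of the 13 above 0 in TAC. Changes were -0.02 for Ly6g, -0.005 for Camp, 0.02 for Ltf and 0.21 for Ngp, and -0.61 for Cxcr2 and -0.38 for Csf3r. The part of macrophages and neutrophils in the falls of Lcn2, Tnc, Mmp3, Lrg1 and the cytokine genes was not tested. In a piece of tissue fewer cells of a type and less RNA per cell cannot be told apart. Between 0 (without d3r3) and 8 (without d3r1) of the 36 cytokine genes were called without 1 TAC array. When 1 TAC array was left out, calls were lost for Mmp3 without d3r3 (adjusted p = 0.0649), Lcn2 without d3r3 or d11r2 (adjusted p up to 0.105), Tnc, Il6 and Cxcl9 without d3r2, d3r3, d11r1 or d11r2 (adjusted p up to 0.268), Il33 without d3r2, d3r3, d11r1 or d11r3 (adjusted p up to 0.137), Lrg1 without d3r3, d11r2 or d11r3 (adjusted p up to 0.201) and Arg1 without d3r2, d3r3, d11r1, d11r2 or d11r3 (adjusted p up to 0.296).

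**Figure D2:**
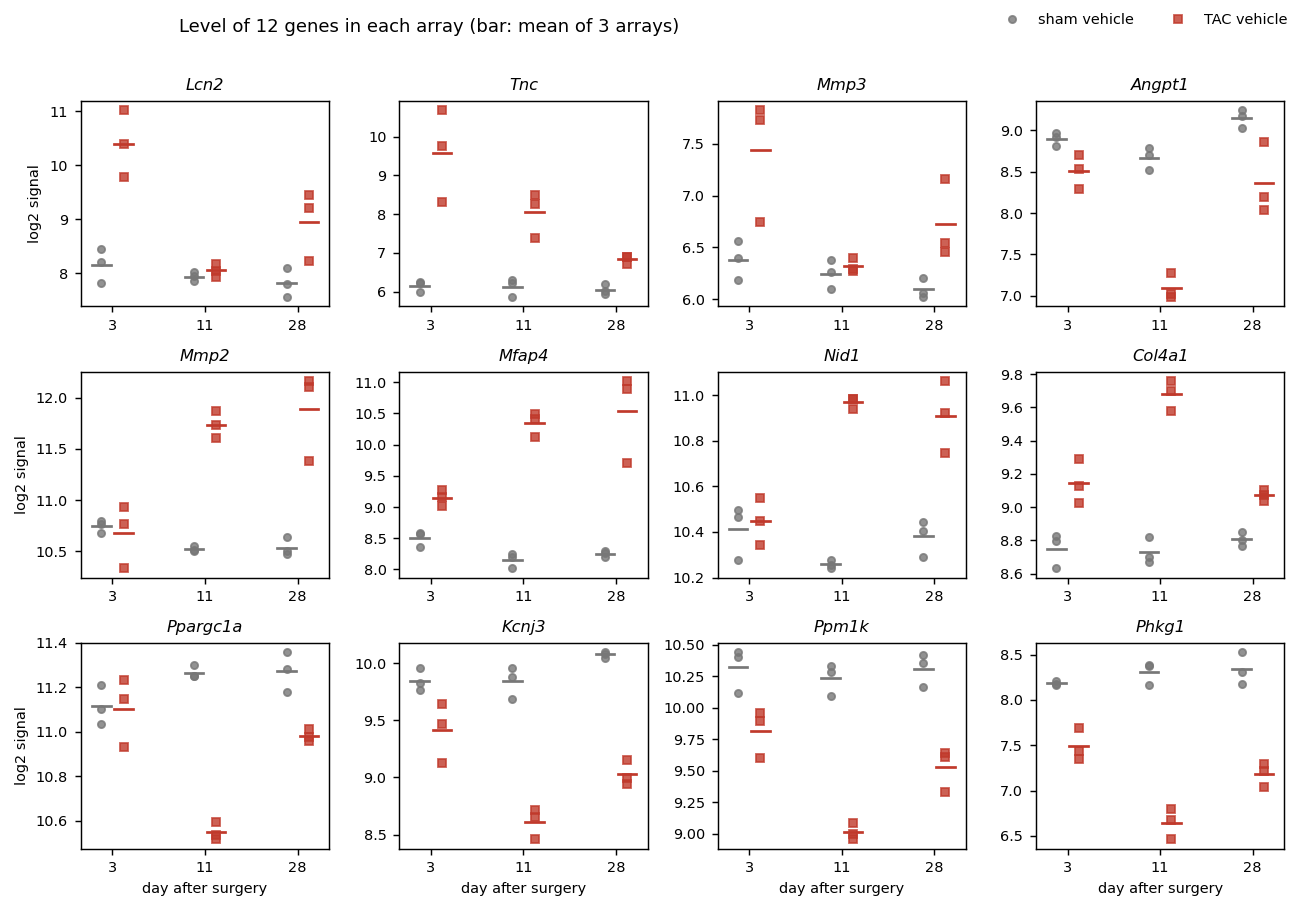
Log2 signal (y axis) of 12 genes in each array by day after surgery (x axis), for sham (grey circles) and TAC (red squares) vehicle hearts. Bars are means of 3 arrays, and day 28 is shown for reference. Lcn2 and Mmp3 return to the sham range by day 11, Mmp2, Mfap4, Nid1 and Col4a1 are higher at day 11 than at day 3, and Ppargc1a, Kcnj3, Ppm1k and Phkg1 are lower.

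Of 31 measured collagen processing, crosslinking and remodelling genes 6 rose and 2 fell (3 calls in all without d3r3), a share of 25.8% called against 1.45% of all genes. Of the 31, 18 had a change above 0, with a median of 0.13 in TAC and -0.05 in sham hearts. Mmp2, the gelatinase that cleaves basement membrane collagen, had levels of 10.93, 10.34 and 10.77 at day 3 and 11.87, 11.73 and 11.61 at day 11 in TAC hearts and 10.77, 10.80 and 10.68 at day 3 and 10.50, 10.55 and 10.51 at day 11 in sham hearts. The TAC groups did not overlap, and the day 3 values spanned the sham values. Mmp2 rose by 1.06 ± 0.16 (adjusted p = 0.00113) while the sham change was -0.23 ± 0.16, and the 2 changes differed by 1.29 ± 0.22 (adjusted p = 0.0158). Its inhibitor and activating partner Timp2 rose by 0.39 ± 0.07 (adjusted p = 0.00472), from 10.29, 10.14 and 10.20 to 10.59, 10.61 and 10.60. Adamtsl2, a secreted protein of microfibrils that limits TGF-beta signalling, read 8.23, 7.78 and 7.83 at day 3 and 8.76, 8.70 and 8.74 at day 11. It rose by 0.79 ± 0.12 (adjusted p = 0.00138), and its difference from sham was 0.96 ± 0.17 (adjusted p = 0.0158). Each of these 3 genes was called in all 6 fits that left out a TAC array. P3h2, a collagen prolyl 3-hydroxylase, rose by 0.65 ± 0.12 (adjusted p = 0.00694), and the metalloproteinase Mmp19 fell by 0.47 ± 0.10 (adjusted p = 0.0209). Both were named after their values were seen, and the calls were lost for P3h2 without d3r3 (adjusted p = 0.0706) and Mmp19 without d3r2, d3r3, d11r2 or d11r3 (adjusted p up to 0.118). Timp1, the inducible inhibitor, read 9.91, 12.10 and 11.68 at day 3 and 10.50, 9.58 and 10.78 at day 11, and its change of -0.95 ± 0.36 did not pass (adjusted p = 0.297), though it did without d3r1 (adjusted p = 0.00421). Lox, which crosslinks collagen and elastin, had a change of -0.40 ± 0.38 (adjusted p = 0.887).

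Of 41 measured matricellular, elastic fibre and proteoglycan genes 6 rose and 1, Tnc, fell, a share of 17.1% called against 1.45% of all genes. Of the 41, 35 had a change above 0, with a median of 0.23 in TAC and -0.06 in sham hearts, against 0.01 and -0.02 over all genes. Mfap4, a microfibril protein that binds elastin and collagen, read 9.27, 9.16 and 9.02 at day 3 and 10.49, 10.12 and 10.40 at day 11, and 8.56, 8.59 and 8.36 at day 3 and 8.02, 8.25 and 8.19 at day 11 in sham. Both TAC days lay above the sham range, and the day 11 values lay about 1 unit above those of day 3. It rose by 1.19 ± 0.23 (adjusted p = 0.00804) and differed from sham by 1.54 ± 0.33 (adjusted p = 0.0394), a difference lost in 11 of 12 fits without 1 array. Mfap5, another microfibril glycoprotein, read 10.59, 10.88 and 10.59 at day 3 and 11.62, 11.52 and 11.73 at day 11 and rose by 0.94 ± 0.18 (adjusted p = 0.00874). Sparc, a collagen-binding protein of remodelling tissue, rose by 0.43 ± 0.08 (adjusted p = 0.00758), from 12.29, 12.52 and 12.34 to 12.89, 12.76 and 12.80. Fbln5, which assembles elastic fibres, rose by 0.59 ± 0.12 (adjusted p = 0.0117) and the leucine-rich proteoglycan Prelp, named after its value was seen, by 0.57 ± 0.13 (adjusted p = 0.0283). Cilp, a cartilage-layer protein also made by cardiac fibroblasts, read 8.53, 8.46 and 8.13 at day 3 and 9.74, 9.21 and 9.52 at day 11 and rose by 1.12 ± 0.28 at adjusted p = 0.0459. Between 0 (without d3r3) and 6 (without d3r1) of the 41 were called without 1 TAC array, and calls were lost for Mfap4, Mfap5 and Sparc without d3r3 (adjusted p up to 0.0706), Fbln5 without d3r3, d11r1 or d11r2 (adjusted p up to 0.0877), Prelp without d3r2, d3r3, d11r1, d11r2 or d11r3 (adjusted p up to 0.138) and Cilp without any 1 of the 6 arrays (adjusted p up to 0.259).

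Other matrix genes known for pressure overload did not pass. Postn, which encodes periostin of activated fibroblasts, read 11.61, 12.25 and 11.52 at day 3 and 12.52, 12.33 and 12.53 at day 11, with a change of 0.67 ± 0.24 (adjusted p = 0.224). Its 6 values all lay more than 1 unit above the sham maximum of 9.71, and the 2 TAC groups did not overlap. Thbs4, an injury-induced thrombospondin, read 8.99, 9.66 and 9.0 at day 3 and 10.46, 10.05 and 10.40 at day 11 (adjusted p = 0.151), and Comp, its cartilage relative, 6.68, 6.64 and 6.79 at day 3 and 7.93, 7.33 and 7.51 at day 11 (adjusted p = 0.291). In both genes all 3 day 11 values lay above those of day 3. The TAC days did not overlap, in either direction, in 15.7% of all genes. The changes of Thbs1, Fn1 and Ccn2 were 0.03 ± 0.26, 0.11 ± 0.23 and 0.22 ± 0.19, with overlapping groups.

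Collagen chains all had estimated changes above 0, some of them close to 0, and most did not pass. All 22 measured chains had a TAC change above 0, against 10781 of all 19937 genes, with a median of 0.20. In sham hearts 1 of the 22 had a change above 0, with a median of -0.10. The TAC changes of Col4a5 (0.01 ± 0.08) and Col5a1 (0.04 ± 0.09) were smaller than their standard errors. The fit called 4 of the 22 higher (18.2%, against 1.45% of all genes). Col4a1 and Col4a2 form the common type IV network of basement membrane, and Col6a1 and Col6a2 belong to the beaded type VI filaments around cells. Col4a1 read 9.02, 9.29 and 9.12 at day 3 and 9.70, 9.58 and 9.76 at day 11 in TAC and 8.82, 8.79 and 8.63 at day 3 and 8.70, 8.82 and 8.67 at day 11 in sham hearts. It rose by 0.53 ± 0.08 (adjusted p = 0.00124), with no overlap, and its change differed from sham by 0.55 ± 0.11 (adjusted p = 0.0367, lost in 8 of 12 fits without 1 array). The changes were 0.48 ± 0.09 for Col4a2 (adjusted p = 0.00861), 0.50 ± 0.12 for Col6a1 (adjusted p = 0.0434) and 0.53 ± 0.12 for Col6a2 (adjusted p = 0.0235). The fibrillar chains Col1a1 and Col3a1 had changes of 0.25 ± 0.15 (adjusted p = 0.677) and 0.11 ± 0.18 (adjusted p = 0.966). Col1a1 read 9.45, 10.01 and 9.67 at day 3 and 10.10, 9.88 and 9.89 at day 11, and day 3 replicate 2 lay among the later hearts. Col8a1, a short chain of vessels and stressed muscle, had a change of 0.59 ± 0.16 that missed the threshold (adjusted p = 0.0637), and was called without d3r2 (adjusted p = 0.00955). Between 1 (Col4a1, without d3r3) and 5 (without d3r2) chains were called when 1 TAC array was left out, and calls were lost for Col4a2 without d3r3 (adjusted p = 0.0877), Col6a1 without any 1 of the 6 arrays (adjusted p up to 0.219) and Col6a2 without d3r3, d11r1, d11r2 or d11r3 (adjusted p up to 0.173).

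The basement membrane genes Nid1 and Lamc1, which belong to no list used here, rose. Nid1, which encodes nidogen, the link between laminin and type IV collagen, read 10.55, 10.34 and 10.45 at day 3 and 10.98, 10.98 and 10.94 at day 11 and rose by 0.52 ± 0.09 (adjusted p = 0.00205). The 3 day 11 values lay close together and above all sham values. The sham change of Nid1 was -0.15 ± 0.09, and the difference was 0.68 ± 0.12 (adjusted p = 0.0158). Lamc1, the gamma 1 chain of most laminins, read 10.57, 10.57 and 10.48 at day 3 and 10.82, 10.89 and 10.94 at day 11 and rose by 0.34 ± 0.06 (adjusted p = 0.00226), with a difference from sham of 0.47 ± 0.08 (adjusted p = 0.0158). Both were called in all 6 fits that left out a TAC array.

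Among 25 TGF-beta ligands, latency proteins and targets 4 rose and 1 fell, a share of 20.0% called against 1.45% of all genes, and 18 had a change above 0, with a median of 0.16 in TAC and 0.02 in sham hearts. Ltbp4, which holds latent TGF-beta on microfibrils, rose by 0.62 ± 0.14 (adjusted p = 0.0231), and Bmp4, a growth factor of the same family, by 0.50 ± 0.12 (adjusted p = 0.0295). Tgif1, a repressor of SMAD signalling, rose by 0.33 ± 0.08 (adjusted p = 0.0456). Bmp4 and Tgif1 were not called when each array was centred on its median. The TGF-beta-induced matrix protein gene Tgfbi fell by 0.66 ± 0.16 (adjusted p = 0.0401), from 9.56, 10.55 and 10.19 to 9.38, 9.54 and 9.41. The ligand Tgfb2 read 8.27, 9.12 and 8.19 at day 3 and 8.94, 9.06 and 9.33 at day 11 and did not pass (adjusted p = 0.0805), but did without d3r2 (adjusted p = 0.00053). None of the 25 was called without d3r3 or without any 1 of the day 11 arrays. Calls of these genes were lost for Ltbp4, Bmp4 and Tgfbi without d3r2, d3r3, d11r1, d11r2 or d11r3 (adjusted p up to 0.214) and Tgif1 without d3r1, d3r3, d11r1, d11r2 or d11r3 (adjusted p up to 0.263).

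Markers of fibroblasts stood higher at day 11. Of 18 measured, 15 had a TAC change above 0 and 3 rose (16.7%, against 1.45% of all genes called). These were Pi16, a protease inhibitor of resting adventitial fibroblasts, Smoc2, a secreted calcium-binding protein, and Cd248, the endosialin of stromal cells. Their changes were 0.60 ± 0.12, 0.52 ± 0.09 and 0.39 ± 0.08. The mean level of the 18 was 0.06, -0.07 and 0.00 in the TAC day 3 arrays and 0.26, 0.17 and 0.26 at day 11. It was -0.01, -0.13 and -0.08 in sham day 3 and -0.26, -0.20 and -0.19 in sham day 11 hearts. The differences of Pi16 (0.89 ± 0.17, adjusted p = 0.0192) and Smoc2 (0.67 ± 0.13, adjusted p = 0.0242) passed the test. The part of fibroblast numbers in the matrix genes was not tested. Fibroblast marker calls were lost for Smoc2 without d3r3 (adjusted p = 0.0509), Pi16 without d3r3 or d11r3 (adjusted p up to 0.065) and Cd248 without d3r3 or d11r2 (adjusted p up to 0.086), and those differences in 4 (Pi16) and 7 (Smoc2) of 12 fits without 1 array.

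Angpt1, the ligand of the endothelial Tie2 receptor that stabilizes vessels, read 8.29, 8.54 and 8.71 at day 3 and 7.27, 6.98 and 7.02 at day 11 in TAC hearts. In sham hearts it read 8.97, 8.81 and 8.91 at day 3 and 8.70, 8.52 and 8.79 at day 11. The day 11 TAC values lay more than 1 unit below every day 3 and sham value. Angpt1 fell by 1.42 ± 0.18 (adjusted p = 0.000454), the sham change was -0.23 ± 0.18, and the changes differed by -1.20 ± 0.26 (adjusted p = 0.0436, lost in 11 of 12 fits without 1 array). Of 22 endothelial markers 16 had a change above 0, with a median of 0.25 in TAC and 0.02 in sham hearts. The fit called 2 higher (9.09%, against 1.45% of all genes). These were Cdh5, the cadherin of endothelial junctions, which rose by 0.44 ± 0.08 (adjusted p = 0.00653), and Tie1, the orphan relative of the Tie2 receptor, by 0.38 ± 0.09 (adjusted p = 0.0283). Outside that list Cd34, a sialomucin of capillary endothelium, rose by 0.48 ± 0.10, and Cd93, a receptor of sprouting endothelium, by 0.54 ± 0.10; both were named after their values were seen. The mean level of the endothelial markers was -0.03, -0.11 and -0.02 at TAC day 3 and 0.10, 0.11 and 0.11 at TAC day 11. In sham hearts it was -0.06, 0.03 and -0.03 and -0.01, 0.04 and -0.03, and the 2 sham days overlapped. Endothelial calls were lost for Cdh5 and Cd34 without d3r3 or d11r2 (adjusted p up to 0.123), Tie1 without d3r2, d3r3, d11r1, d11r2 or d11r3 (adjusted p up to 0.142) and Cd93 without d3r3 (adjusted p = 0.0877).

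Of 18 adrenergic, renin-angiotensin and natriuretic receptor genes 3 rose (Ace, Pde5a and Rgs5) and 2 fell (Corin and Adra1b), a share of 27.8% called against 1.45% of all genes. There were 8 changes above 0, and the median was -0.05 in TAC and 0.01 in sham hearts. Adra1b, an alpha-1 adrenergic receptor, was named after its value was seen. Between 1 (without d3r3) and 4 (without d11r1) of the 18 were called without 1 TAC array, with at most 1 of the 2 falls in any of these fits. Ace, the angiotensin-converting enzyme of endothelium, read 10.10, 9.80 and 9.87 at day 3 and 10.39, 10.41 and 10.54 at day 11, with no overlap and above the sham maximum of 9.66. It rose by 0.53 ± 0.09 (adjusted p = 0.00213) and differed from sham by 0.59 ± 0.12 (adjusted p = 0.0373, lost in 11 of 12 fits without 1 array). Pde5a, the phosphodiesterase that breaks down cyclic GMP, rose by 0.32 ± 0.06 (adjusted p = 0.00508), and Rgs5, a regulator of G protein signalling in pericytes, by 0.36 ± 0.07 (adjusted p = 0.011). Outside that list, Kit, the receptor of stem cell factor, read 7.09, 7.11 and 6.94 at day 3 and 7.65, 7.61 and 7.44 at day 11 and rose by 0.52 ± 0.08 (adjusted p = 0.00205). Pcdh17, a protocadherin, read 7.87, 7.77 and 7.79 at day 3 and 8.35, 8.51 and 8.43 at day 11 and rose by 0.62 ± 0.08 (adjusted p = 0.000454), with a difference from sham of 0.70 ± 0.11. Corin, the protease that activates atrial natriuretic peptide, fell by 0.44 ± 0.11 (adjusted p = 0.0381). Ace, Kit and Pcdh17 were called in all 6 fits without 1 TAC array, and calls were lost for Pde5a without d3r3 (adjusted p = 0.0515), Rgs5 without d3r2, d3r3 or d11r2 (adjusted p up to 0.0632) and Corin without d3r1, d3r3, d11r1, d11r2 or d11r3 (adjusted p up to 0.31).

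The classical stress genes of cardiomyocytes stood above sham at both days. The mean level of 24 fetal and stress genes was 0.27, 0.65 and 0.18 at TAC day 3, 0.49, 0.47 and 0.70 at TAC day 11, and -0.36 or lower in all 6 sham arrays. Between the days 2 of the 24 rose (8.33%, against 1.45% of all genes called), with a median change of 0.16 in TAC and 0.09 in sham hearts. Nppa, which encodes atrial natriuretic peptide, read 12.98, 13.22 and 12.38 at day 3 and 13.51, 13.44 and 13.56 at day 11 in TAC and 11.52, 11.31 and 11.42 at day 3 and 11.59, 11.89 and 11.59 at day 11 in sham hearts. Its day 11 values lay above those of day 3, but the change of 0.65 ± 0.18 did not pass (adjusted p = 0.0871). Acta1, the skeletal alpha-actin gene of the fetal heart, read 12.59, 12.69 and 11.68 at day 3 and 13.34, 13.40 and 13.51 at day 11, a change of 1.10 ± 0.29 (adjusted p = 0.0616). Both passed without d3r2 (adjusted p = 0.0302 and 0.0432). Nppb, the gene of brain natriuretic peptide, read 12.56, 12.91 and 12.29 at day 3 and 12.62, 12.49 and 13.12 at day 11, and the groups overlapped (0.16 ± 0.32). Myh7, the slow fetal myosin heavy chain, read 11.90, 11.01 and 11.37 at day 3 and 11.84, 11.85 and 11.66 at day 11 (0.36 ± 0.22), and Myh6, its adult counterpart, 13.47, 13.41 and 13.45 at day 3 and 13.35, 13.39 and 13.35 at day 11 (-0.08 ± 0.05). Ankrd1, a stretch-sensing titin partner, had a change of 0.12 ± 0.07.

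The 2 stress genes that rose were Rcan1, the calcineurin inhibitor that is itself a calcineurin target, and Xirp2, an actin-binding protein of the intercalated disc. Rcan1 read 10.33, 10.91 and 10.49 at day 3 and 11.26, 11.12 and 11.69 at day 11 and rose by 0.78 ± 0.18 (adjusted p = 0.0304). Xirp2 read 12.36, 12.63 and 12.19 at day 3 and 12.86, 12.94 and 13.04 at day 11 and rose by 0.55 ± 0.11 (adjusted p = 0.0133), against 0.00 ± 0.11 in sham. Neither pair of groups overlapped. Without 1 TAC array between 0 (without d3r3 or d11r3) and 6 (without d3r2) of the 24 were called, and calls were lost for Rcan1 without d3r1, d3r3, d11r1 or d11r3 (adjusted p up to 0.199) and Xirp2 without d3r3, d11r2 or d11r3 (adjusted p up to 0.138). Cardiomyocyte markers, 12 of 12 measured, had mean levels of 0.02, -0.07 and 0.00 at TAC day 3 and -0.06, -0.05 and -0.05 at day 11. In sham hearts they read 0.02, 0.02 and 0.02 and 0.04, 0.03 and 0.04, and limma called none of the 12 (2 at an unadjusted p under 0.05). Their part in the genes of fuel use and channels described next was not tested.

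**Figure D3:**
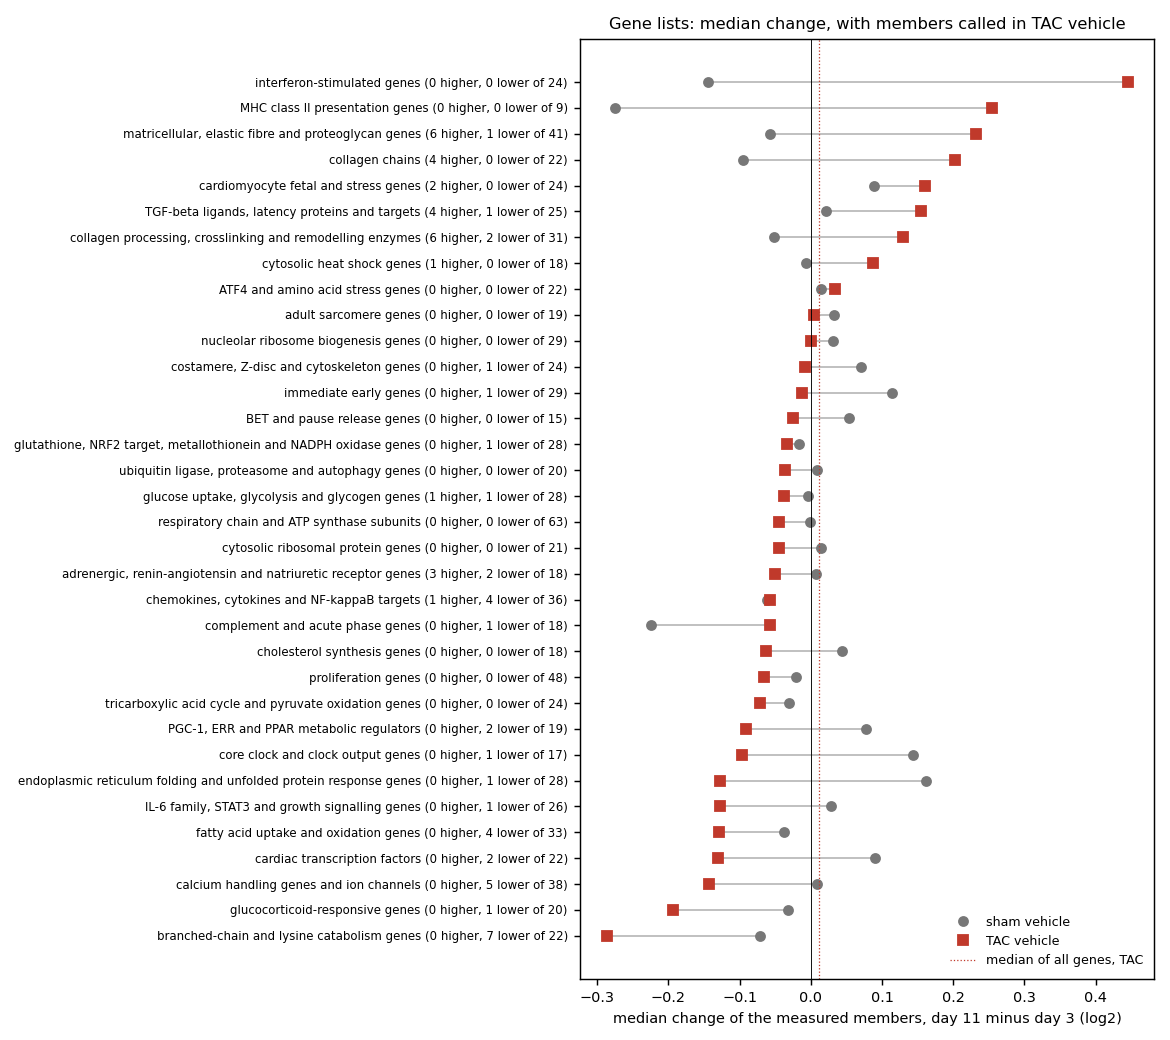
Median change (x axis, log2, day 11 minus day 3) of the measured members of each pathway list (y axis; lists of cell type markers are not shown) in TAC (red squares) and sham (grey circles) hearts, with the number of members called higher and lower in TAC. Interferon-stimulated genes (0.45) and MHC class II genes (0.25) lie furthest to the right in TAC, without a call. Matrix lists also lie to the right (matricellular 0.23, collagens 0.20), and branched-chain catabolism lies furthest to the left of the lists shown (-0.29).

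Branched-chain amino acid breakdown had the lowest median TAC change of the pathway lists, the lists of cell type markers not counted. None of its 22 measured genes had a TAC change above 0, and the median was -0.29 against -0.07 in sham hearts. Of the 22, 7 fell (31.8%, against 1.45% of all genes called). Ppm1k, the phosphatase that switches on the branched-chain ketoacid dehydrogenase, read 9.96, 9.60 and 9.89 at day 3 and 8.96, 9.09 and 9.0 at day 11 in TAC and 10.44, 10.12 and 10.40 at day 3 and 10.33, 10.10 and 10.28 at day 11 in sham hearts. The levels at day 3 were below the sham range and those at day 11 lower still. Ppm1k fell by 0.80 ± 0.11 (adjusted p = 0.000454), a 1.75-fold lower level, and differed from sham by -0.72 ± 0.15 (adjusted p = 0.0382, lost in 9 of 12 fits without 1 array). Bcat2, the mitochondrial aminotransferase of the first step, read 10.20, 10.03 and 10.44 at day 3 and 9.67, 9.82 and 9.79 at day 11, and fell by 0.46 ± 0.09 (adjusted p = 0.00781). In sham hearts it read 10.28, 10.41 and 10.26 at day 3 and 10.58, 10.56 and 10.57 at day 11, a change upwards of 0.26 ± 0.09 that did not pass (adjusted p = 0.674), and the TAC change minus the sham change was -0.72 ± 0.12 (adjusted p = 0.0158). Dbt, the core subunit of the dehydrogenase, fell by 0.43 ± 0.09 (adjusted p = 0.0152). The acyl-CoA dehydrogenases of isoleucine, leucine and lysine breakdown fell too: Acadsb by 0.53 ± 0.09, Ivd by 0.40 ± 0.09 and Gcdh by 0.35 ± 0.07. Mccc1, a subunit of the leucine-pathway carboxylase, fell by 0.34 ± 0.09 at adjusted p = 0.0495. Dbt, Ivd and Mccc1 were named after their values were seen. Between 2 (without d3r3 or d11r1) and 11 (without d3r2) of the 22 were called without 1 TAC array, Ppm1k and Acadsb in all 6 fits. Calls were lost for Bcat2 and Gcdh without d3r3 or d11r1 (adjusted p up to 0.105), Dbt without d3r1, d3r3, d11r1 or d11r2 (adjusted p up to 0.108), Ivd without d3r1, d3r3, d11r1 or d11r3 (adjusted p up to 0.216) and Mccc1 without d3r1, d3r3, d11r1, d11r2 or d11r3 (adjusted p up to 0.296).

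Genes of fatty acid uptake and oxidation held fewer calls. Of 33 measured 4 fell and none rose (12.1% called, against 1.45% of all genes), with a median of -0.13 in TAC and -0.04 in sham hearts. Slc27a1, a fatty acid transport protein of the plasma membrane, read 10.26, 10.04 and 10.44 at day 3 and 9.64, 9.48 and 9.61 at day 11 and fell by 0.67 ± 0.11 (adjusted p = 0.00205). Ech1, an isomerase for unsaturated fatty acids, read 12.41, 12.25 and 12.41 at day 3 and 12.03, 11.91 and 11.92 at day 11 and fell by 0.41 ± 0.06 (adjusted p = 0.00205). Neither pair of groups overlapped, and the sham values of Ech1 lay between 12.61 and 12.74. Slc25a20, the carnitine carrier of the inner mitochondrial membrane, fell by 0.34 ± 0.09 (adjusted p = 0.0464) and Etfb, which passes electrons from acyl-CoA dehydrogenases, by 0.24 ± 0.06 (adjusted p = 0.0293). Between 2 and 9 (without d3r2) of the 33 were called without 1 TAC array, and calls were lost for Slc25a20 and Etfb without d3r1, d3r3, d11r1, d11r2 or d11r3 (adjusted p up to 0.222). Limma called none of 63 respiratory chain subunits, with 8 of the 63 above 0, a median of -0.04 and 5 at an unadjusted p under 0.05. Of 24 tricarboxylic acid cycle genes it also called none, with 3 above 0, a median of -0.07 and 8 at an unadjusted p under 0.05.

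Of 19 regulators of oxidative metabolism 2 fell (10.5%, against 1.45% of all genes called). Ppargc1a, which encodes the coactivator PGC-1alpha of mitochondrial biogenesis, read 11.15, 10.93 and 11.23 at day 3 and 10.59, 10.52 and 10.54 at day 11 in TAC and 11.21, 11.03 and 11.10 at day 3 and 11.25, 11.25 and 11.30 at day 11 in sham hearts. At day 3 the TAC values spanned the sham day 3 range, and at day 11 they lay below every sham value. It fell by 0.55 ± 0.07 (adjusted p = 0.000571) and differed from sham by -0.70 ± 0.11 (adjusted p = 0.0158), a difference called in each of 12 fits that left out 1 array. Ppara, the nuclear receptor for fatty acid oxidation genes, fell by 0.49 ± 0.10 (adjusted p = 0.0178). In glycogen and glucose use Phkg1, the catalytic subunit of muscle phosphorylase kinase, read 7.44, 7.35 and 7.69 at day 3 and 6.80, 6.46 and 6.68 at day 11. It fell by 0.85 ± 0.12 (adjusted p = 0.000754), and differed from sham by -0.97 ± 0.17 (adjusted p = 0.0158). Pfkp, the platelet form of phosphofructokinase, rose by 0.57 ± 0.14 (adjusted p = 0.0443), and was not called when arrays were centred on their median. Among these, calls were lost for Ppara without d3r1, d3r3, d11r1 or d11r2 (adjusted p up to 0.137) and Pfkp without d3r1, d3r3, d11r1, d11r2 or d11r3 (adjusted p up to 0.271).

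Of 38 measured calcium handling genes and ion channels 5 fell and none rose, a share of 13.2% called against 1.45% of all genes. There were 10 changes above 0, and the median was -0.14 in TAC and 0.01 in sham hearts. All 5 that fell encode potassium channel pores, and 15 of the 38 measured genes have potassium channel symbols beginning with Kcn. Kcnj3 and Kcnj5 form the acetylcholine-activated inward rectifier. Kcnj3 read 9.46, 9.13 and 9.64 at day 3 and 8.72, 8.66 and 8.46 at day 11 in TAC and 9.77, 9.82 and 9.95 at day 3 and 9.96, 9.68 and 9.88 at day 11 in sham hearts, with no overlap between TAC days. It fell by 0.80 ± 0.12 (adjusted p = 0.00135), and differed from sham by -0.79 ± 0.17 (adjusted p = 0.0436, lost in 10 of 12 fits without 1 array). Kcnj5 read 9.42, 9.25 and 9.21 at day 3 and 8.88, 8.86 and 8.92 at day 11 and fell by 0.41 ± 0.07 (adjusted p = 0.00402). Kcnh2, the pore of the rapid delayed rectifier, read 8.98, 8.89 and 9.08 at day 3 and 8.54, 8.39 and 8.42 at day 11 and fell by 0.54 ± 0.08 (adjusted p = 0.00184). Kcnq1, the pore of the slow delayed rectifier, fell by 0.46 ± 0.09 (adjusted p = 0.00804). Kcnj11, the pore of the ATP-sensitive channel, fell by 0.27 ± 0.07 (adjusted p = 0.0457) and was named after its value was seen. Kcnj3, Kcnj5 and Kcnh2 were called in all 6 fits without 1 TAC array, and calls were lost for Kcnq1 without d3r3 or d11r2 (adjusted p up to 0.0649) and Kcnj11 without d3r1, d3r3, d11r1, d11r2 or d11r3 (adjusted p up to 0.224). Without d3r2 8 of the 38 were called. Atp2a2, the calcium pump of the sarcoplasmic reticulum, read 13.62, 13.61 and 13.64 at day 3 and 13.54, 13.50 and 13.49 at day 11, with no overlap, and its change of -0.12 ± 0.05 did not pass (adjusted p = 0.461).

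Gpr22, an orphan receptor of heart and brain, read 9.40, 9.10 and 9.21 at day 3 and 8.25, 7.88 and 8.29 at day 11 in TAC and 9.24, 9.18 and 9.69 at day 3 and 9.27, 9.12 and 9.59 at day 11 in sham hearts. Its day 3 values overlapped the sham values, and the day 11 values lay below all of them. Gpr22 fell by 1.10 ± 0.16 (adjusted p = 0.00113). Of 22 cardiac transcription factors 2 fell (9.09%, against 1.45% of all genes called). These were Hopx, a homeodomain cofactor without DNA binding, by 0.59 ± 0.12 (adjusted p = 0.00903), and Myocd, the serum response factor coactivator myocardin, by 0.35 ± 0.09 (adjusted p = 0.0409). The sham change of Myocd was 0.31 ± 0.09, and the difference was -0.66 ± 0.12 (adjusted p = 0.0174, lost in 3 of 12 fits without 1 array). Calls in TAC were lost for Hopx without d3r1, d3r3 or d11r2 (adjusted p up to 0.0649) and Myocd without any 1 of the 6 arrays (adjusted p up to 0.188).

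Endoplasmic reticulum folding genes were the list in which most members differed between TAC and sham hearts. Of 28 measured, 1 was called in TAC (lower, 3.57% against 1.45% of all genes) and none in sham hearts. At an unadjusted p under 0.05 the list held 8 genes in TAC and 13 in sham hearts. The median change was -0.13 in TAC and 0.16 in sham hearts, and the test of the difference called 8 of the 28 (28.6%), all lower in TAC relative to sham, against 0.351% of all genes. The list was chosen with an earlier look at these arrays known, so that share is a description. Several of these genes share a promoter element, the endoplasmic reticulum stress element, which is bound by ATF6 and XBP1 together with NF-Y. Searched on both strands as CCAAT followed after 9 bases by CCACG, it was found in 9 of the 24 members with a promoter window (37.5%) and in 37 of all 27025 windows (0.137%). Among the 6 members with a window whose change differed, 3 held it, as did 6 of the 18 other members with a window. The 3 whose change differed are shown. The windows run from 250 bases before to 50 after the gene start in RefSeq, build GRCm38.p6, and capitals mark CCAAT and CCACG or their reverse complements. All are given 5′ to 3′ on the gene's strand.
Hspa5 (chr2:34772005-34772063, plus strand, -85 to -27 from the gene start): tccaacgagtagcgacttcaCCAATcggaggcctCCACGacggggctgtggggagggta
Creld2 (chr15:88819500-88819558, plus strand, -146 to -88): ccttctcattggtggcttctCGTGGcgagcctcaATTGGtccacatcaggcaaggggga
Calr (chr8:84847055-84847113, minus strand, -182 to -124): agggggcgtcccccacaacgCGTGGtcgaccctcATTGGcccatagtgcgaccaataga

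Hspa5 has the element in the forward direction and Creld2 and Calr in reverse. Hspa5, which encodes BiP, the main chaperone of the reticulum, read 11.93, 12.07 and 11.98 at day 3 and 11.69, 11.86 and 11.68 at day 11 in TAC hearts. In sham hearts it read 11.81, 11.95 and 11.83 at day 3 and 12.08, 12.28 and 12.14 at day 11. The TAC values were lower at day 11 and the sham values higher, with no overlap in either pair. The changes of -0.25 ± 0.08 and 0.30 ± 0.08 did not pass alone, and their difference of -0.55 ± 0.11 did (adjusted p = 0.0265; lost in 7 of 12 fits without 1 array). Creld2, a secreted disulfide isomerase, had changes of -0.05 ± 0.09 in TAC and 0.56 ± 0.09 in sham hearts. The sham change came close to the threshold (adjusted p = 0.0525), the TAC values overlapped, and the difference was -0.61 ± 0.13 (adjusted p = 0.0382). Calr, the calcium-storing lectin chaperone calreticulin, had changes of -0.13 ± 0.06 and 0.27 ± 0.06, which differed by -0.40 ± 0.09 (adjusted p = 0.0436). The differences of Creld2 and Calr were lost in 10 and 11 of those 12 fits.

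The largest differences were in Sdf2l1, a cofactor of BiP, and Manf, a secreted stress-induced neurotrophic factor. Sdf2l1 read 8.27, 8.85 and 8.62 at day 3 and 8.22, 8.29 and 8.17 at day 11 in TAC and 8.03, 8.30 and 7.88 at day 3 and 8.56, 8.99 and 8.77 at day 11 in sham hearts. Its changes were -0.36 ± 0.13 and 0.70 ± 0.13, a difference of -1.06 ± 0.19 (adjusted p = 0.0158). Manf read 8.09, 8.57 and 8.17 at day 3 and 7.91, 7.90 and 7.96 at day 11 in TAC and 7.82, 8.03 and 7.82 at day 3 and 8.31, 8.73 and 8.49 at day 11 in sham hearts, with a difference of -0.98 ± 0.16 (adjusted p = 0.0158) that was called in each of 12 fits without 1 array. In both genes sham day 11 had the highest group mean, and all 3 sham day 11 values lay above the sham day 3 values. Sham means at days 3, 11 and 28 were 8.073, 8.775 and 8.179 for Sdf2l1 and 7.886, 8.511 and 7.902 for Manf. For Hspa5 they were 11.865, 12.166 and 12.02, with day 28 in between. The part of the sham day 11 arrays in these differences was not tested. The TAC days did not overlap in Manf, and in Sdf2l1 day 3 replicate 1 lay among the day 11 values. Dnajb9, a BiP co-chaperone, differed by -0.85 ± 0.17, Hyou1, its nucleotide exchange factor, by -0.69 ± 0.13, and Xbp1, the transcription factor of the response, by -0.55 ± 0.10. These 3 differences were lost in 8, 3 and 2 of 12 fits. The 3 genes had changes of -0.35, -0.19 and -0.15 in TAC and 0.51, 0.51 and 0.40 in sham hearts. In each of the 8 folding genes whose change differed, the sham rise was larger than the TAC fall. Of all 70 genes called in the difference, 56 had the larger absolute change in TAC. Ddit3, which encodes the stress-induced factor CHOP, was the member called in TAC, with a change of -0.33 ± 0.08 (adjusted p = 0.0354). The call in TAC was lost for Ddit3 without any 1 of the 6 arrays (adjusted p up to 0.164). Without sham day 11 replicate 3 or without d3r3 the test of the difference called 2 of the 28, and between 4 and 7 without each other array. Hyou1, Creld2 and Calr were named after their values were seen.

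**Figure D4:**
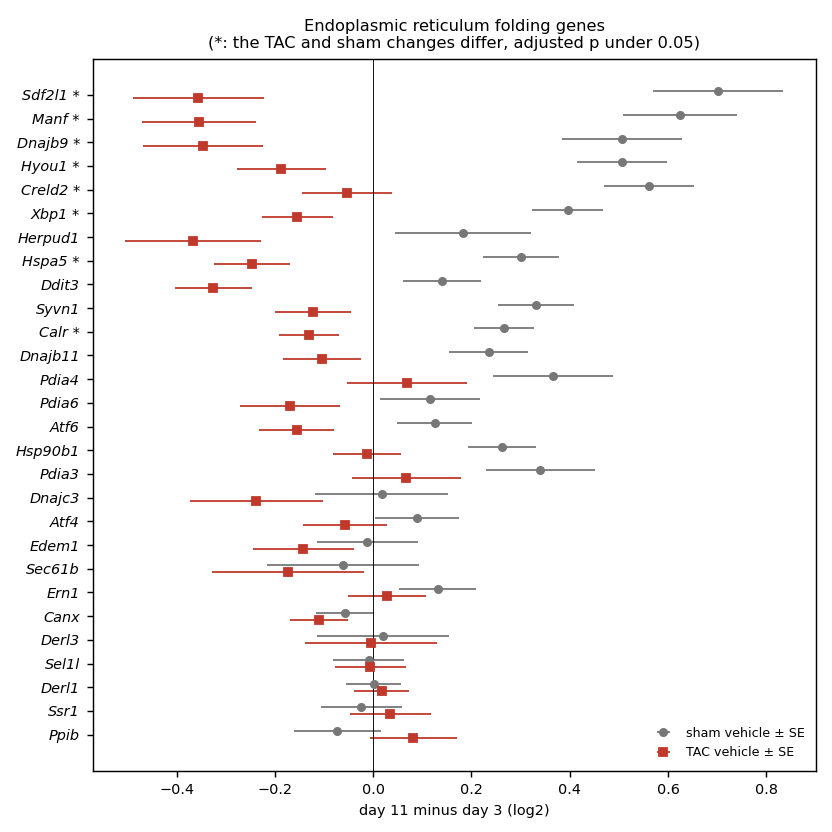
Change between days 3 and 11 (x axis, log2, ± standard error of the fit, n = 3 arrays per group) of 28 endoplasmic reticulum folding genes (y axis) in TAC (red squares) and sham (grey circles) hearts. Stars mark the 8 genes whose changes differed. Sham points lie mostly to the right of 0 (median 0.16) and TAC points to the left (median -0.13).

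Clock and steroid-responsive genes held 1 call each (5.88% and 5.0%, against 1.45% of all genes). Of 17 clock genes 1 fell: Per2, a repressor of the clock, read 8.37, 8.23 and 8.32 at day 3 and 7.55, 7.99 and 7.78 at day 11 with no overlap, and fell by 0.53 ± 0.12 (adjusted p = 0.0228). That call was lost for Per2 without d3r1, d3r3, d11r1 or d11r3 (adjusted p up to 0.155). Arntl, the clock activator BMAL1, had a change of 0.48 ± 0.21 (adjusted p = 0.41), and Dbp, a clock output factor, -0.04 ± 0.21 (adjusted p = 0.993). Of 20 glucocorticoid-responsive genes 1 fell, with a median of -0.19 in TAC and -0.03 in sham hearts. The chaperone gene Fkbp5 had a change of -0.34 ± 0.29 (adjusted p = 0.864). The 1 that fell was Lcn2, which is also counted above among the cytokine genes and the neutrophil markers. The labels give no hour of tissue collection.

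Cell cycle and interferon genes held no call. Limma called none of 48 proliferation genes (1 at an unadjusted p under 0.05, 1 called without d3r1), and the median was -0.07. Mki67, the proliferation marker Ki-67, read 7.93, 8.98 and 8.0 at day 3 and 8.34, 8.21 and 8.36 at day 11 in TAC and 6.72, 6.60 and 6.71 at day 3 and 6.60, 6.71 and 6.89 at day 11 in sham hearts. TAC values were above sham at both days, and day 3 replicate 2 was the highest of the 6. The change was 0.00 ± 0.21, and that of the topoisomerase gene Top2a -0.10 ± 0.24. Of 24 interferon-stimulated genes limma called none (13 at an unadjusted p under 0.05), although 23 had a change above 0, with a median of 0.45 in TAC against -0.14 in sham hearts, the largest median of any list in TAC. In 19 of the 24 the TAC days did not overlap, against 15.7% of all genes in either direction. Rsad2, the antiviral enzyme viperin, had a change of 0.80 ± 0.22 (adjusted p = 0.0677), and Irf7, the interferon-induced regulator, 0.66 ± 0.21 (adjusted p = 0.136). Both were named after their values were seen. The mean level of the 24 was -0.05, -0.01 and -0.21 at TAC day 3 and 0.33, 0.40 and 0.23 at day 11. The fit to the 6 arrays alone called 1 of the 24.

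Other gene groups of the heart held few calls. No member was called among 19 adult sarcomere genes, 29 ribosome biogenesis genes, 21 ribosomal protein genes, 22 ATF4 targets or 18 cholesterol synthesis genes, and their TAC medians lay between -0.06 and 0.03. At an unadjusted p under 0.05 they held 3, 1, 1, 4 and 3 genes. Of 29 immediate early genes 1 fell (3.45%, against 1.45% of all genes called). Of the 29, 27 had a sham change above 0 and 13 a TAC change above 0. The test of the difference called 2 of these 29 lower in TAC (6.9%, against 0.351% of all genes). These were Ier3 and Dusp5, a phosphatase of ERK kinases, with differences of -0.76 ± 0.17 and -0.53 ± 0.11. Those differences were lost in 9 and 10 of 12 fits without 1 array. Of 18 heat shock genes 1 rose (5.56%), of 28 NRF2 targets and redox genes 1 fell (3.57%), and of 20 protein degradation genes none was called (4 at an unadjusted p under 0.05). Lymphocyte markers, mesothelial markers and small nucleolar RNAs, 15, 15 and 51 measured, held no call (2, 1 and 0 at an unadjusted p under 0.05). Dendritic and mast cell markers, 12 measured, held 1 rise (8.33%), with 8 of the 12 changes above 0. Smooth muscle and pericyte markers, 15 measured, also held 1 rise (6.67%), with 9 of the 15 above 0. The MHC class II genes, 9 measured, had a median change of 0.25 in TAC and -0.28 in sham hearts, also without a call (2 at an unadjusted p under 0.05).

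**Figure D5:**
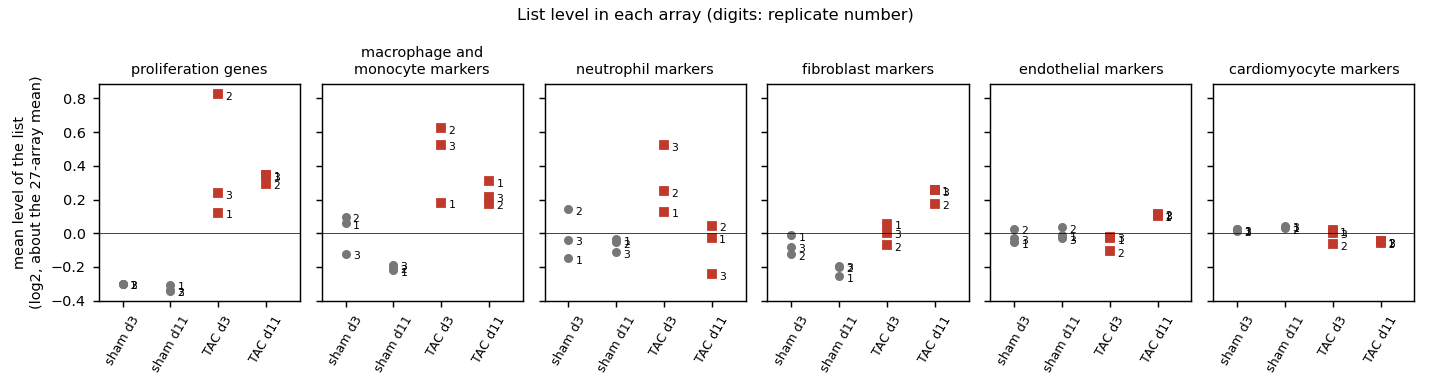
Mean level of each list in each vehicle array (y axis, log2, each gene taken about its mean over 27 arrays) by group (x axis), with digits for replicate numbers; sham grey, TAC red. TAC day 3 replicate 2 is highest in proliferation genes (0.82, against 0.12 and 0.24 in the other day 3 arrays), and fibroblast and endothelial markers are higher in all 3 TAC day 11 arrays than in any TAC day 3 array.

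Among genes named for the size of their change alone, Itgbl1, an integrin-like secreted protein, read 8.47, 8.11 and 7.99 at day 3 and 9.37, 9.31 and 9.25 at day 11. It rose by 1.12 ± 0.21 against -0.43 ± 0.21 in sham, a difference of 1.55 ± 0.29 (adjusted p = 0.0198, lost in 7 of 12 fits without 1 array). Mest, an imprinted gene of growth, read 8.0, 8.60 and 7.56 at day 3 and 9.26, 9.08 and 9.19 at day 11 and rose by 1.13 ± 0.20 (adjusted p = 0.00402). Aqp8, a water channel, read 8.18, 7.59 and 7.47 at day 3 and 8.72, 8.82 and 9.15 at day 11 and rose by 1.15 ± 0.23 (adjusted p = 0.0105). Dio2, which converts thyroxine to its active form, read 6.74, 6.80 and 6.85 at day 3 and 7.46, 7.70 and 7.92 at day 11, with no overlap, and rose by 0.89 ± 0.19 (adjusted p = 0.0158). Kctd12b rose by 0.98 ± 0.14 and Rnf144a, a ubiquitin ligase, by 0.69 ± 0.08, both called in all 6 fits without 1 array. Armh4 fell by 1.07 ± 0.20 (adjusted p = 0.00619) and 2210407C18Rik by 1.72 ± 0.31 (adjusted p = 0.00542). In this group calls were lost for Itgbl1, Mest and 2210407C18Rik without d3r3 (adjusted p up to 0.0649), Aqp8 without d3r3 or d11r3 (adjusted p up to 0.102), Dio2 without d3r1, d3r3, d11r2 or d11r3 (adjusted p up to 0.105) and Armh4 without d3r3 or d11r2 (adjusted p up to 0.0607).

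The day change was also measured in TAC hearts given JQ1, on arrays that neither vehicle change uses. There 363 genes (1.82%) were called, 269 higher (1.35%) and 94 lower (0.471%). Of the 289 genes called in vehicle hearts, 220 (76.1%) had the same sign with JQ1, against 51.0% of all genes, and 37 were called there in the same direction. With JQ1 the changes were -2.21 ± 0.47 for Lcn2 (adjusted p = 0.0182), -2.27 ± 0.37 for Tnc (adjusted p = 0.00378) and -0.80 ± 0.20 for Mmp3 (adjusted p = 0.0417). Those of Mmp2 and Nid1 were 0.41 ± 0.16 and 0.08 ± 0.09 (adjusted p = 0.174 and 0.639), where the vehicle values were 1.06 and 0.52. For Ppm1k, Ppargc1a, Kcnj3 and Phkg1 they were 0.03 ± 0.11, -0.05 ± 0.07, 0.10 ± 0.12 and 0.09 ± 0.12, none of them called. In Mki67 the change was 1.38 ± 0.21 (adjusted p = 0.00378), and 16 of the 48 proliferation and 9 of the 24 interferon genes were called higher. Differences between the vehicle and JQ1 changes were not tested.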

How the data were processed

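RNA from heart pieces was labelled by a whole-transcript Affymetrix protocol, per the labels. The values are the authors' deposited log2 signals, 34760 probe sets on 27 arrays in 9 groups of 3. The submitters' processing notes name limma. The method of normalization is not stated in the notes used here, and array medians lay between 6.95 and 7.04. The number of arrays limits the precision.

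The platform annotation gave 1 gene for 21640 probe sets, several for 1321 and none for 11799. Symbols were updated through Entrez IDs (21553 matched), and of several probe sets the one with the highest mean over 27 arrays stood for a gene, leaving 19937 genes. A group-means model over all arrays was fitted with limma 3.58.1 in R 4.3.3 (18 residual and 4.9 prior degrees of freedom, median residual SD 0.127). The contrasts were the TAC and sham day changes, their difference, and the JQ1 day change. A gene was called at an adjusted p under 0.05 (Benjamini-Hochberg over all genes). In simulated data with 19937 genes, each gene had independent normal noise of the same SD in every group. There the TAC test found 18% of planted 1.2-fold, 74% of 1.5-fold and 100% of 2-fold changes, and the difference test 6%, 60% and 92%. In the real arrays the SD can differ between groups, for Timp1 1.16 in TAC day 3 and 0.09 in sham day 11. The recovered shares may therefore not hold for the real arrays.

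The members and lists were chosen with earlier results of these data known. Genes were open to naming if they were in a fixed set of stress, matrix, cytokine, metabolic and clock genes; among the 15 largest non-overlapping called changes per direction; among the 4 smallest p of a list (2 where none was called); or among the 10 smallest p per direction of the difference. Genes added after their values were seen also count among the 97 called genes open to naming. Of 1112 list names 1023 matched. Alternatives were other normalization, centring, filters, probe set means, variance models, array weights, array subsets, a replicate block and leaving out each array. Tables were made with pandas 2.3.3 and figures with matplotlib 3.10.9 in Python 3.11.15.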

Additional observations from a re-analysis of the deposited data

Results flagged for a closer look

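The day change differed between TAC and sham hearts for 70 genes by the test of the difference in limma, 31 higher and 39 lower in TAC relative to sham. Of these 16 were called in neither the TAC nor the sham change. The values below are that difference on the log2 scale, TAC change minus sham change.

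Among secreted, matrix and stromal genes the difference was 1.55 for Itgbl1, 1.54 for Mfap4, 1.29 for Mmp2, 0.96 for Adamtsl2, 0.89 for Pi16 and 0.68 for Nid1. It was 0.67 for Smoc2, 0.55 for Col4a1, 0.52 for Sparc, 0.47 for Lamc1 and 0.46 for Timp2. In vascular and other rising genes it was 1.0 for Kctd12b, 0.70 for Pcdh17, 0.68 for Rnf144a, 0.63 for Cd34 and 0.59 for Ace.

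The endoplasmic reticulum genes differed by -1.06 (Sdf2l1), -0.98 (Manf), -0.85 (Dnajb9), -0.69 (Hyou1), -0.61 (Creld2), -0.55 (Xbp1), -0.55 (Hspa5) and -0.40 (Calr). Genes of metabolism differed by -0.97 (Phkg1), -0.72 (Ppm1k), -0.72 (Bcat2), -0.70 (Ppargc1a), -0.67 (Ppara) and -0.48 (Ech1). Channel, receptor and regulator genes differed by -1.05 (Gpr22), -0.79 (Kcnj3), -0.56 (Kcnh2), -0.66 (Myocd), -0.76 (Ier3) and -0.53 (Dusp5). Angpt1 differed by -1.20 and Armh4 by -1.35. The call was lost in 11 of 12 fits without 1 TAC or sham array for Angpt1, Ace, Cd34, Mfap4, Kcnh2, Ppara, Timp2 and Calr, in 9 for Kctd12b, Gpr22, Sparc, Ppm1k and Ier3, and in 1 for Lamc1, Bcat2, Adamtsl2, Phkg1, Nid1, Rnf144a and Sdf2l1. Manf, Ppargc1a, Pcdh17 and Mmp2 were called in all 12.

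Probe sets outside the gene table also held calls. Of 1321 probe sets that name several genes 4 were called in TAC (1 higher, 3 lower), and of 11799 that name no gene 1 was called, higher. In sham hearts limma called 0 of either kind, with 69 and 685 at an unadjusted p under 0.05.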

How the results depend on the processing

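The 289 TAC calls became 363 with quantile normalization, 246 with centred arrays, 401 without the dimmest genes, 273 with probe set means and 369 with a trended robust variance. They became 887 with array weights and 26 with the 6 arrays alone. Leaving out 1 array gave 40 to 322. The 70 calls for the difference became 108 with quantile normalization, 63 with centred arrays, 156 without the dimmest genes, 69 with probe set means, 141 with a trended robust variance, 1031 with array weights and 76 with 12 arrays alone, and 6 to 122 without 1 array. Of the 76, 67.1% were higher, against 44.3% of the 70. The sham count of 0 by limma became 2 with quantile normalization, 4 with centred arrays, 6 without the dimmest genes, 0 with probe set means, 6 with a trended robust variance, 1036 with array weights and 0 with its own 6 arrays, and 0 to 4 without 1 array. The 363 JQ1 calls became 394 with quantile normalization, 358 with centred arrays, 535 without the dimmest genes, 360 with probe set means, 482 with a trended robust variance, 3958 with array weights and 9 with 6 arrays alone, and 81 to 607 without 1 array. Fits to the compared arrays alone have fewer residual degrees of freedom and take the spread from those groups only. The causes of these shifts, in those fits and in the others, were not tested.

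Whether equal replicate numbers pair the arrays could not be settled. Deviations of same-numbered arrays from their group means correlated at -0.09, -0.33 and -0.43 between TAC days and -0.09, 0.48 and 0.00 between sham days. Those of differently numbered arrays lay between -0.03 and 0.35 in TAC and between -0.52 and 0.54 in sham hearts. The 3 deviations of a group sum to 0, which limits this check. With the replicate block 259 genes were called in TAC, 43 for the difference, 3 in sham and 266 with JQ1.

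Of the 97 called genes open to naming, 0 reversed under these settings, and 97 kept the call with array weights, 95 with quantile normalization, 90 with centred arrays and 14 with the 6 arrays alone.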
